A study of Mus musculus with 15 samples.

Results

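Lipolysis in cultured white adipocytes was followed through 6 genes: the lipases Pnpla2, Lipe and Mgll, the Pnpla2 coactivator Abhd5, the Pnpla2 inhibitor G0s2, and Pnpla3, a close relative of Pnpla2. They were taken by name from the table of raw read counts, and all 6 were found among its 18804 genes. The cells came from C57BL/6J mice. Mesenchymal stem cells, progenitors that can form fat cells and that the study isolated from ears, were induced to become adipocytes with methylisobutylxanthine, dexamethasone, insulin and a thiazolidinedione, so every group carried this history. The labels name troglitazone as that drug, and the study's methods name rosiglitazone under cell culture and troglitazone under the differentiation of precursors. The day 0 group stayed at 37°C, the cells of day 1 went to 31°C on day 15 of differentiation, and those of day 12 on day 4. Harvest was on day 16 for all, and each group had 5 libraries. No animal age or sex was given, and neither was whether libraries stand for separate mice or separate dishes, so the p-values below measure the spread between these libraries, which may be technical. The early move also means that the day 12 cells spent most of their differentiation at 31°C, so time in the cool and stage at the move cannot be told apart. Each group is a separate set of cultures, so days 0, 1 and 12 are not a time course of the same cells.

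An adipocyte stores fat as triacylglycerol in a lipid droplet and releases it in steps, each removing a fatty acid. Pnpla2 encodes adipose triglyceride lipase (ATGL), which starts the breakdown and leaves diacylglycerol; Lipe encodes hormone-sensitive lipase, which acts mainly on diacylglycerol; and Mgll encodes monoacylglycerol lipase, which frees the glycerol. ATGL works with Abhd5, a coactivator that the droplet protein Plin1 holds back until protein kinase A is active, and is blocked by G0s2, a small protein that binds it. Pnpla3 encodes adiponutrin, which in fat and liver follows feeding and insulin and can bind Abhd5. Catecholamines raise cAMP and start lipolysis, and insulin opposes it, in large part through proteins and their phosphorylation. The values below are RNA levels, which do not measure enzyme activity.

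The genes lie apart in the mouse genome. In the GENCODE annotation of GRCm38, the same build as mm10, Pnpla2 spans chr7:141455198-141460743 on the plus strand and Lipe chr7:25379527-25398710 on the minus strand. Mgll spans chr6:88724412-88828360 and Abhd5 chr9:122351608-122381524, both on the plus strand. G0s2 lies at chr1:193272161-193273217 on the minus strand and Pnpla3 at chr15:84167837-84187236 on the plus strand. Pnpla2 and G0s2 share no exon bases with another gene. Exons of antisense genes cover 15.6% of the exon bases of Lipe (4732471J01Rik, with 37 to 90 counts per library) and 16% of those of Abhd5 (A730085K08Rik, with 0 to 8 counts), and since the strand setting of the counting is not given in the sources used here, such reads cannot be told apart. For Pnpla3 and Mgll the shared part was 6.78% and 3.29%.

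Promoter windows of 300 bases are shown for the members that were called and so carry the result. These were Pnpla2 and Mgll, which were higher at 31°C, and G0s2 and Pnpla3, which were lower. Each window takes 250 bases before and 50 after a start. That start was the GENCODE start given above for Mgll, whose first window of 2 is shown, and a different one for Pnpla2, G0s2 and Pnpla3. The sequences are from RefSeq on GRCm38.p6, in which all 6 members matched. Capitals mark matches, on either strand, to the letters of 6 known elements. The E-box, read by many helix-loop-helix factors, was searched as CACGTG. For the cAMP response element, read by the Creb family, the letters were TGACGTCA. The GC box, which Sp1 and its relatives bind, was searched as GGGCGG, and it can overlap itself. The TATA box, which places the start of transcription, was taken as TATAAA. The forkhead site of the Foxo factors was taken as GTAAACA. The sterol element of the Srebf factors was taken as TCACNCCAC. Other elements were not searched.
Pnpla2 promoter (chr7:141454938-141455237, plus strand): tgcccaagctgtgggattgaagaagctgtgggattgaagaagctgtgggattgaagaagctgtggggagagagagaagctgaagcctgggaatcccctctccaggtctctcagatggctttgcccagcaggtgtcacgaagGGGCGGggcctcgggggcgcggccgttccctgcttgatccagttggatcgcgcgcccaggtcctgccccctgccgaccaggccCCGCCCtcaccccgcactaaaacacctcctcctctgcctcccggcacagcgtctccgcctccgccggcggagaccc
Mgll promoter (chr6:88724162-88724461, plus strand): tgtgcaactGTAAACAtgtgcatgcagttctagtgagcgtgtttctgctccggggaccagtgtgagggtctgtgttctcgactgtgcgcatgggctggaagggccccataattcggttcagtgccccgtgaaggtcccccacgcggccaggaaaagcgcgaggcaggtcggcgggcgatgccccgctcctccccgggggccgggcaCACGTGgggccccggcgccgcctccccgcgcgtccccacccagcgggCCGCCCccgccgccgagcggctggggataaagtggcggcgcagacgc
G0s2 promoter (chr1:193273139-193273438, minus strand): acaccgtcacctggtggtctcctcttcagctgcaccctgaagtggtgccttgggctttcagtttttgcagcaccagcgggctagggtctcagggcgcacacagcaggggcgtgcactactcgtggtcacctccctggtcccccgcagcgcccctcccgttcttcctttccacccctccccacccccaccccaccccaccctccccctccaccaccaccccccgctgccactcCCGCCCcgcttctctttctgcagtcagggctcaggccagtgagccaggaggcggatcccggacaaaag
Pnpla3 promoter (chr15:84167566-84167865, plus strand): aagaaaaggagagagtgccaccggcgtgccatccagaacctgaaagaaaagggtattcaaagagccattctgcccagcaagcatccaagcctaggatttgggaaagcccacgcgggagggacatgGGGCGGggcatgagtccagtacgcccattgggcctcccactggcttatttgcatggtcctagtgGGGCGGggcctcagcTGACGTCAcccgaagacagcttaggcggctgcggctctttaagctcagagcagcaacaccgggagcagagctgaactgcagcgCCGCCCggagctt

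The windows differed in what they held. Positions are counted from the start that each window was built on, which is not always the GENCODE start. For Lipe, both windows lie inside the GENCODE span of the gene, so its positions are not upstream of that start. Only GC boxes were matched in the Pnpla2 window, at positions -109 and -26, and in the G0s2 window, at -18. GC boxes were found in 35.7% of 32851 promoters. The first Mgll window had an E-box at -44 and a forkhead match at -241. The first of the 2 Lipe windows also held an E-box, at -155, together with 6 GC boxes, and the second held a forkhead match, at -119. GC boxes were matched in both Mgll windows and in those of Pnpla3 and Abhd5 too. E-boxes were found in 7.15% of promoters and forkhead matches in 3.65%. Pnpla3 was the member with a cAMP response element, at -46, which 1.79% of promoters held. No window of the 6 genes had the TATA box or the sterol element, present in 13.6% and 1.24% of promoters. A match is a description of letters and not a binding site.

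The libraries held between 64648178 and 133270973 counts, and where no read was seen the level could still be up to 0.0238 to 0.0428 CPM, depending on the library, by counting error only. CPM is the count relative to the library size after scaling by TMM, a method that takes most genes to be alike between libraries. All 6 members passed the filter on low counts, which left 14293 genes for the test. Called genes had an adjusted p below 0.05 and changed by more than 1.5-fold, the thresholds of the study. The libraries held adipocyte markers, beside fibroblast and progenitor markers at a high level. Adipoq, the adipocyte hormone adiponectin, averaged 1090, 1130 and 464 CPM at days 0, 1 and 12. Of 8 adipocyte markers, 2 were called higher and 4 lower at day 12 against day 0, and their summed level lay in 5230 to 5770, 6220 to 6700 and 4800 to 5370 CPM at the 3 times. The fibroblast and progenitor markers summed to 3890 to 4260, 3470 to 3720 and 3100 to 3460 CPM in the same order, with 1 of 6 tested called lower at day 12. Cycling markers were called higher at day 12 in 4 of 4 (47 to 57.2 CPM summed at day 0, 138 to 166 at day 12). Mesothelial markers summed to 2.06 to 2.25 CPM at day 0 and 23.4 to 38.3 at day 12, through Msln, with Wt1 at 0 in all day 12 libraries and Upk3b near 0. Leucocyte markers summed to 7.71 to 10.4 CPM at day 0, 10.9 to 14 after 1 day and 7.4 to 8.3 after 12 days, and of 4 tested 2 were called higher at day 12 (Csf1r, log2 1.47, and Lyz2, 1.07). Endothelial markers summed to 0.524 to 0.689, 0.282 to 0.903 and 0.921 to 1.47 CPM, and of 3 tested 2 were called higher at day 12 (Pecam1, log2 1.31, and Kdr, 1.5). The defining Ptprc, Cd3e and Cdh5 were at or near 0. The part of these markers in the results below was not tested, and in bulk RNA fewer cells of a type and less RNA per cell cannot be told apart.

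At day 1 against day 0, 3 of the 6 members were called, Mgll higher and Pnpla3 and G0s2 lower, where 21.1% of all tested genes were called (7.71% higher and 13.4% lower). At day 12 against day 0, 4 of 6 were called, with Pnpla2 and Mgll higher and Pnpla3 and G0s2 lower, against 29.2% of all genes (13% higher and 16.2% lower). Between day 12 and day 1 only Pnpla3 was called, and lower, against 19.1% of all genes (8.53% in that direction). By adjusted p alone the numbers were 4, 6 and 6 of 6, where 71.5%, 76.6% and 67.2% of all genes passed. The groups did not overlap for 4, 6 and 6 members, as for 57.4%, 64.6% and 52.5% of all genes. The median log2 fold change of the members was 0.01, 0.03 and -0.11 in the 3 comparisons, against -0.01, 0.01 and 0.01 over all genes tested, with members on either side of 0. The 3 comparisons share groups and are not independent.

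**Figure D1:**
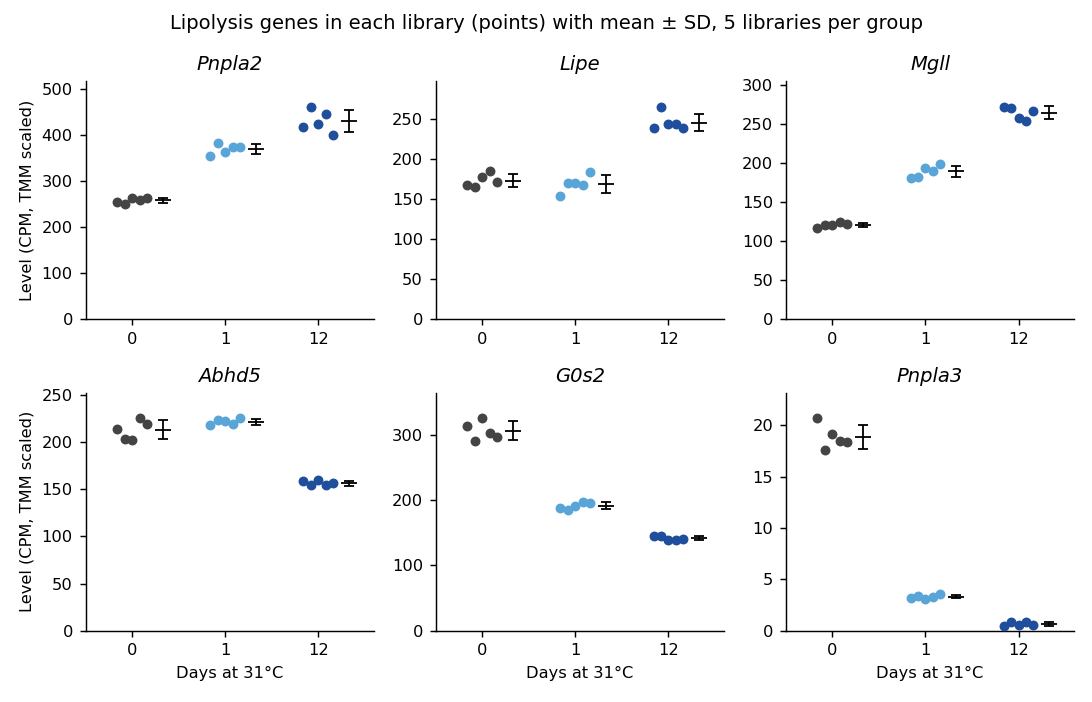
Level of each gene in each library (points, CPM) by days at 31°C, with the mean and SD of 5 libraries beside them, each panel on its own axis from 0. Pnpla2 and Mgll stood higher and G0s2 and Pnpla3 lower at each later time without overlap, while Lipe and Abhd5 overlapped between days 0 and 1 and separated at day 12.

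Pnpla2, the first lipase of the pathway, was higher after both exposures. Its level was 255, 251, 264, 259 and 263 CPM in the 5 day 0 libraries and 355, 383, 364, 375 and 374 CPM at day 1. At day 12 it was 418, 462, 424, 445 and 400 CPM. No library of one group reached the range of another. Group means were 258 ± 5.4, 370 ± 10.7 and 430 ± 24.3 CPM (SD, n = 5). On the log2 scale the day 1 change was 0.52 ± 0.03 (SE; adjusted p = 8e-13 with edgeR's quasi-likelihood test), a 1.43-fold difference that lay under the fold limit. At day 12 it was 0.73 ± 0.03, or 1.66-fold, which was called (adjusted p = 5.78e-16) and would not be at a fold limit of 2. Most of that difference was present at day 1, and the day 12 level was 1.16-fold above that of day 1 (adjusted p = 2.97e-06).

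Lipe, whose enzyme takes the diacylglycerol step, had a different course. It stood at 168, 165, 178, 185 and 172 CPM at day 0 and at 154, 170, 170, 168 and 184 CPM at day 1. Those ranges overlapped, and the log2 difference of -0.04 ± 0.04 (SE) did not pass (adjusted p = 0.433), with a 95% interval from -0.12 to 0.04. At day 12 the level was 239, 266, 244, 244 and 239 CPM, above every library of the earlier times. The mean of 246 ± 11.2 CPM (SD, n = 5) was 1.42-fold that of day 0 (adjusted p = 4.1e-11) and 1.46-fold that of day 1 (adjusted p = 2.29e-11), both under the fold limit. Scaling by total counts took Lipe past the limit at day 12, at a log2 difference of 0.70 from day 0 and 0.72 from day 1. That scaling moved the median of all genes by 0.21 and 0.18 in these comparisons, where TMM left it at 0.01 in both, so relative to all genes the difference was no larger. Lipe also passed the limit against day 1 with scaling by reference genes (0.70, with the median of all genes at 0.16) and among the 11 libraries of the larger of 2 series of library numbers in the titles (0.60), the other series holding 4 libraries.

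Mgll, for the last step, was higher than at day 0 at both later times. The 5 libraries read 117, 120, 120, 124 and 122 CPM at day 0, 181, 182, 193, 190 and 199 at day 1, and 272, 270, 257, 254 and 266 at day 12. The groups did not overlap and stood in the order of the time at 31°C. Its log2 fold change was 0.65 ± 0.03 (SE) at day 1, or 1.57-fold (adjusted p = 1.69e-15), and 1.13 ± 0.03 at day 12, or 2.19-fold (adjusted p = 2.25e-20), which placed it at rank 761 from the top of the 14293 genes. From day 1 to day 12 the level differed 1.4-fold (adjusted p = 4.59e-13), under the limit. The day 1 call was lost with scaling by the reference genes Hprt, Tbp and Ppia, at 0.55, a scaling under which the median of all genes was -0.11, and the day 12 against day 1 difference passed the limit with that scaling (0.64) and with total counts (0.65).

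Abhd5, the coactivator of ATGL, was lower at day 12. Day 0 libraries held 214, 203, 202, 225 and 219 CPM and day 1 libraries 218, 223, 222, 219 and 225 CPM, which overlapped. The log2 difference of 0.06 ± 0.03 (SE) did not pass (adjusted p = 0.0772), with a 95% interval whose lower end was 0.0011, and it turned to -0.04 with scaling by reference genes. After 12 days the values were 158, 154, 160, 154 and 156 CPM, below all other libraries. The level was 1.36-fold lower than at day 0 (log2 -0.44 ± 0.03, adjusted p = 7.57e-13) and 1.42-fold lower than at day 1 (adjusted p = 1.67e-13), and neither difference reached the fold limit.

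G0s2, the inhibitor of ATGL, was lower than at day 0 at both later times. Its level in the 5 libraries was 313, 290, 325, 303 and 297 CPM at day 0 and 187, 184, 191, 197 and 195 CPM at day 1. At day 12 it was 145, 145, 139, 139 and 140 CPM. The 3 groups lay apart, and the day 1 group showed most of the difference from day 0. The log2 fold change was -0.68 ± 0.03 (SE; 1.6-fold lower, adjusted p = 1.33e-15) at day 1 and -1.11 ± 0.03 (2.16-fold lower, adjusted p = 7.03e-20) at day 12. Day 12 lay 1.35-fold under day 1 (adjusted p = 9.77e-12), which was under the limit.

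Pnpla3 had the largest change of the 6 in all 3 comparisons. It went from 20.7, 17.6, 19.2, 18.5 and 18.4 CPM at day 0 to 3.24, 3.43, 3.11, 3.32 and 3.57 CPM at day 1 and 0.471, 0.858, 0.547, 0.855 and 0.61 CPM at day 12. These levels rest on 1626 to 2611, 238 to 364 and 45 to 68 reads per library, so the day 12 values are the least precise of the members. No groups overlapped. The log2 fold change was -2.50 ± 0.08 (SE) at day 1, or 5.66-fold lower (adjusted p = 5.6e-18), and -4.85 ± 0.10 at day 12, or 28.8-fold lower (adjusted p = 5.05e-22). That was rank 10 from the bottom of the 14293 genes. Against day 1, day 12 was 5.08-fold lower (log2 -2.35 ± 0.12, adjusted p = 8.26e-15). It was the member whose day 12 level lay past the fold limit from that of day 1.

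**Figure D2:**
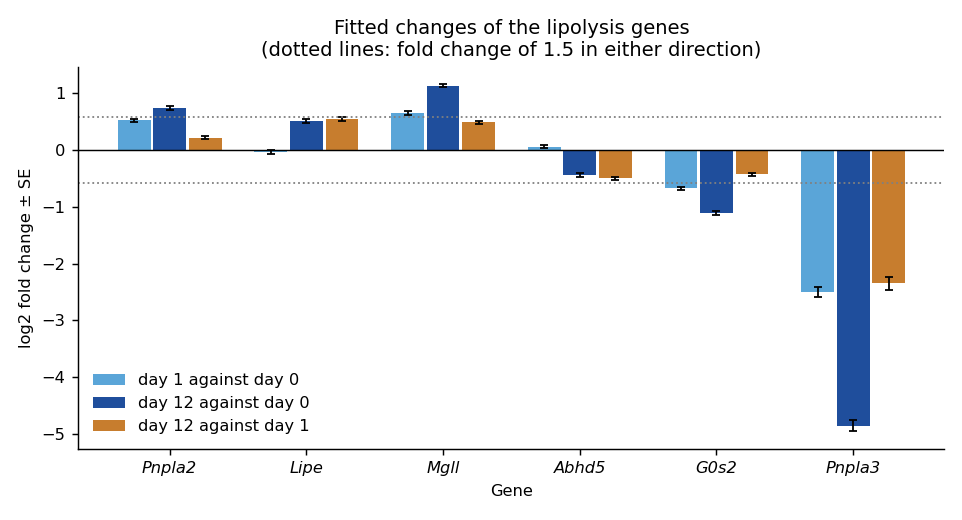
Fitted log2 fold change of each gene with its SE in the 3 comparisons, from 15 libraries; the dotted lines mark a fold change of 1.5. Pnpla3 reached -4.85 at day 12, Mgll 1.13 and G0s2 -1.11, while Lipe and Abhd5 stayed inside the lines.

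Levels of different genes were compared per length, as CPM per kb of exon, with the exons of all annotated transcripts merged; a cell that uses short isoforms would stand too low on this scale. G0s2 was the most abundant member at day 0, with 351 CPM per kb, followed by Pnpla2 with 85.6, Abhd5 with 35.7, Lipe with 29.5, Mgll with 23.8 and Pnpla3 with 12.2. No neighbours in this order overlapped. At day 1 the order was G0s2 (219), Pnpla2 (123), Mgll (37.2), Abhd5 (37.1), Lipe (28.7) and Pnpla3 (2.15), and Mgll and Abhd5 did not differ beyond their spread. At day 12 Mgll (51.9) and Lipe (41.9) stood above Abhd5 (26.2), G0s2 (163) remained first and Pnpla2 (142) second, and Pnpla3 was at 0.432, again without overlap of neighbours. Among the 12888 genes with a length, Pnpla2 moved from rank 408 at day 0 to rank 209 at day 12 and Mgll from 1692 to 693. G0s2 went from 104 to 178, Abhd5 from 1086 to 1530, and Pnpla3 from 3175 to 10559.

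**Figure D3:**
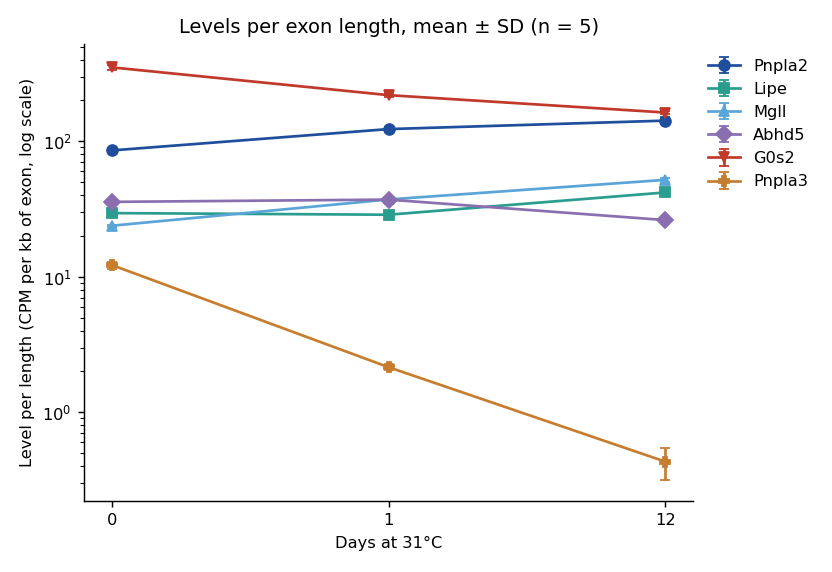
Mean level per length (CPM per kb of exon, log axis) with SD of 5 libraries for each gene against days at 31°C; lines join means and spacing of the days is not to scale. G0s2 and Pnpla2 came closer, from 351 and 85.6 at day 0 to 163 and 142 at day 12, and Mgll passed Abhd5.

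The balance between a lipase and its partners was taken as the ratio of 2 genes within a library, which the scaling of the library does not touch. Per length, Pnpla2 stood at 0.244 ± 0.0095 of its inhibitor G0s2 before the move, 0.56 ± 0.022 after 1 day and 0.875 ± 0.047 after 12 days (SD, n = 5). The ranges were 0.234 to 0.256, 0.547 to 0.599 and 0.825 to 0.921. The ratio was thus 2.29-fold higher at day 1 and 3.58-fold higher at day 12 than at day 0. Against its coactivator, the ratio of Pnpla2 to Abhd5 was 2.4 ± 0.11, 3.3 ± 0.077 and 5.43 ± 0.37 at the 3 times.

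Between successive lipases the balance moved differently. Pnpla2 to Lipe was 2.91 ± 0.11, 4.28 ± 0.22 and 3.4 ± 0.11, so the day 1 value was the highest, and the day 12 value was lower than that of day 1 by 0.33 on the log2 scale of the count ratio (-0.33). Lipe to Mgll was 1.24 ± 0.041, 0.772 ± 0.029 and 0.807 ± 0.039. Pnpla3 to Pnpla2, the 2 patatin-like members, went from 0.143 ± 0.0091 to 0.0176 ± 0.00071 and 0.00301 ± 0.00067. Of 15 tests, 14 gave the smallest p that 5 against 5 libraries allow in a two-sided exact permutation test (p = 0.00794, adjusted p = 0.0085). The ratios join members that mostly separated as single genes in the same libraries, so these tests add little independent evidence. No other gene pairs were tested, so how often pairs separate is not known, while 57.4%, 64.6% and 52.5% of single genes did in the 3 comparisons. With replicate numbers as a block (exact sign-flip test, adjusted p = 0.067) or in the larger library series alone (exact permutation test, adjusted p = 0.0612) 0 of 15 passed, in designs too small to reach 0.05 over 15 tests. The exception was Lipe to Mgll at day 12 against day 1, with a log2 difference of 0.06 (exact permutation p = 0.151).

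**Figure D4:**
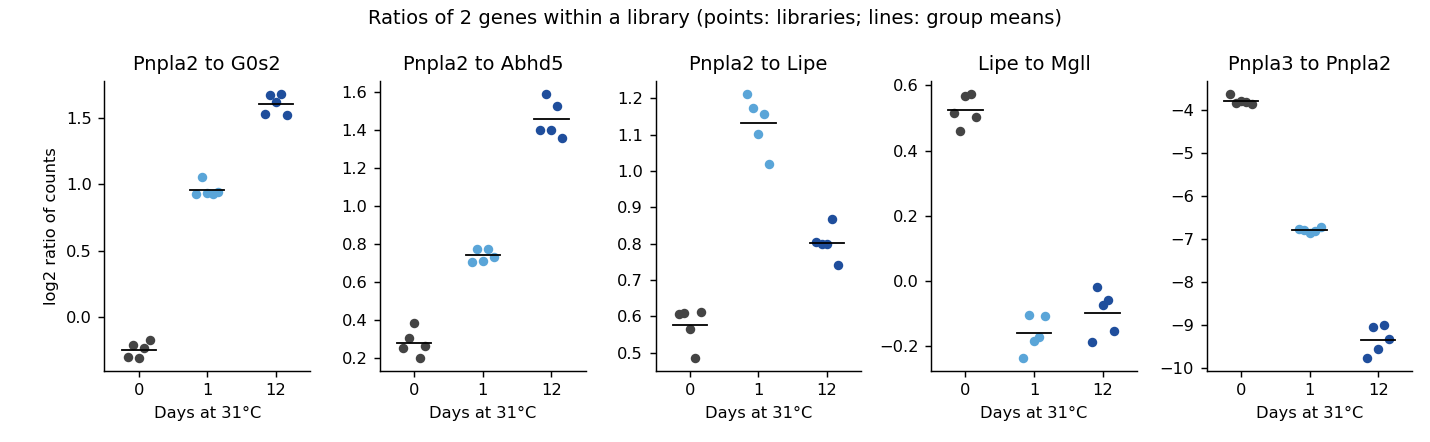
Log2 ratio of the counts of 2 genes in each library (points) by days at 31°C, with group means as lines; the panels have different axes. The Pnpla2 to G0s2 ratio separated all 3 groups, and the Lipe to Mgll ratio separated day 0 from the other two, which overlapped.

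The wider lipolysis pathway was described with 10 lists holding 94 genes, of which 92 were tested. At day 1, 2 were higher and 14 lower (17.4%, against 21.1% of all genes), and at day 12, 8 were higher and 23 lower (33.7%, against 29.2%), with a median log2 fold change of -0.16 over the lists and 0.01 over all genes. Between day 12 and day 1, 9 were higher and 17 lower (28.3%, against 19.1%).

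The head of the pathway holds receptors and G proteins of either effect on cAMP. Of 6 receptors and G proteins that raise cAMP, 3 fell at day 12. Adrb3, the main beta-adrenergic receptor of mouse white adipocytes, averaged 56.4 ± 2.91, 10.4 ± 0.752 and 0.819 ± 0.257 CPM at the 3 times (SD, n = 5), with a change of -6.10 ± 0.10 on the log2 scale (SE; adjusted p = 2.13e-24) at day 12. Adrb1, at 0.291 CPM at day 0, had a log2 change of -1.50. Of 11 receptors and G proteins that lower cAMP, 5 fell at day 12. Hcar1, the lactate receptor, listed under its older symbol Gpr81, had 14.6, 8.21 and 3.18 CPM (log2 -2.20), Hcar2, the niacin receptor, listed as Niacr1, had 7.55, 3.24 and 0.801 CPM (log2 -3.22), and Ptger3, a prostaglandin receptor, had 0.463, 0.387 and 0.0626 CPM (log2 -2.89). The genes of both lists that were called at day 12 against day 0 were lower, while 3 of 6 and 6 of 11 were not called. Against day 1, 2 of the 11 were called higher at day 12, Npy1r (log2 0.63) and Ffar2 (0.95), named here after their values were seen, and 6 lower.

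Among 9 adenylyl cyclases, which make cAMP, 2 rose and 3 fell at day 12. Adcy7 went from 2.07 to 11 CPM (log2 2.40) and Adcy2 from 0.77 to 0.257 CPM (log2 -1.55), while Adcy8 had 0.123 CPM at day 0 and 0.0191 at day 12, the latter under the limit set by a count of 0. Of 10 kinase subunits and anchors 1 was called, Prkg2, a cGMP-dependent kinase, at 3.44 CPM at day 0 and 21.3 at day 12 (log2 2.62). The insulin brake on lipolysis had 1 of 12 genes higher and 2 lower. Akt1, a kinase below the insulin receptor, went from 174 to 272 CPM (log2 0.64). Akt2, on the same list, went the other way, from 225 to 172 CPM (log2 -0.39, under the fold limit). Irs1, an adaptor of the insulin receptor, went from 135 to 70 CPM (log2 -0.95), and Irs2 from 49.3 to 32.8 CPM (log2 -0.59). The Irs2 change was just past the fold limit and was lost in 10 of its alternative fits, down to -0.39 with total counts. Pde3b, the phosphodiesterase through which insulin lowers cAMP, was not called (117 and 93 CPM, log2 -0.33 ± 0.04, adjusted p = 1.06e-07).

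The droplet proteins that hold or release lipases were called in 3 of 8 tested, each lower. Cidec, which lets droplets fuse and grow, stood at 177 ± 6.41, 28.8 ± 2.3 and 59 ± 3.69 CPM (SD; log2 -1.59 at day 12, adjusted p = 1.08e-19), so its lowest level was at day 1. Cideb, of the same family, had 5.03, 2.59 and 1.95 CPM (log2 -1.37), and Hilpda, a small inhibitor of ATGL like G0s2, had 27.1, 20.7 and 12 CPM (log2 -1.17). Plin1, which holds Abhd5, was not called, at 200, 283 and 235 CPM (log2 0.23 ± 0.04 at day 12, adjusted p = 5.13e-06).

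Carriers of the products were called in 3 of 5 genes. The fatty acid binding proteins rose, Fabp4 from 828 to 1620 CPM (log2 0.97) and Fabp5 from 95.2 to 194 CPM (log2 1.03), and the aquaporin Aqp11 fell from 1.51 to 0.33 CPM (log2 -2.20). Of the 6 other patatin-like phospholipase genes, relatives of Pnpla2 and Pnpla3, 5 were tested and 0 were called in each comparison by edgeR, as by DESeq2. Their log2 changes were at most 0.32, 0.34 and 0.52 in size in the 3 comparisons, and 4, 2 and 2 of the 5 had an unadjusted p under 0.05. Of 16 other lipases 1 rose and 2 fell, namely Aadac (1.27 to 3.16 CPM, log2 1.31), Ces1f, a carboxylesterase of adipocytes and liver (75.8 to 19.9 CPM, log2 -1.93), and Abhd4 (229 to 125 CPM, log2 -0.87).

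Of 10 transcription factors known to act on lipase genes, 1 rose and 4 fell at day 12. Egr1, a repressor of the Pnpla2 promoter, went from 23.9 to 70.7 CPM (log2 1.56), Irf4, which promotes lipase expression in fasting, from 1.37 to 0.48 CPM (log2 -1.53), and Foxo1, the insulin-restrained activator of Pnpla2, from 65 to 39.3 CPM (log2 -0.73, or -0.53 and not called with total counts). Srebf1 and Mlxipl, lipogenic factors known to drive Pnpla3, were not called at day 12, and their part in its fall was not tested. Both were lower at day 1 than at day 0, under the fold limit (log2 -0.25 and -0.53). Nr1h3 and Pparg, of the same list, were called lower at day 12 (log2 -0.69, and -0.59, just past the fold limit). Srebf1 had 246, 207 and 246 CPM (log2 -0.0025 ± 0.035, adjusted p = 0.952, and above 0 with total counts, reference genes or no filter), and Mlxipl had 3.39, 2.34 and 2.61 CPM (log2 -0.38 ± 0.10, adjusted p = 0.000958).

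**Figure D5:**
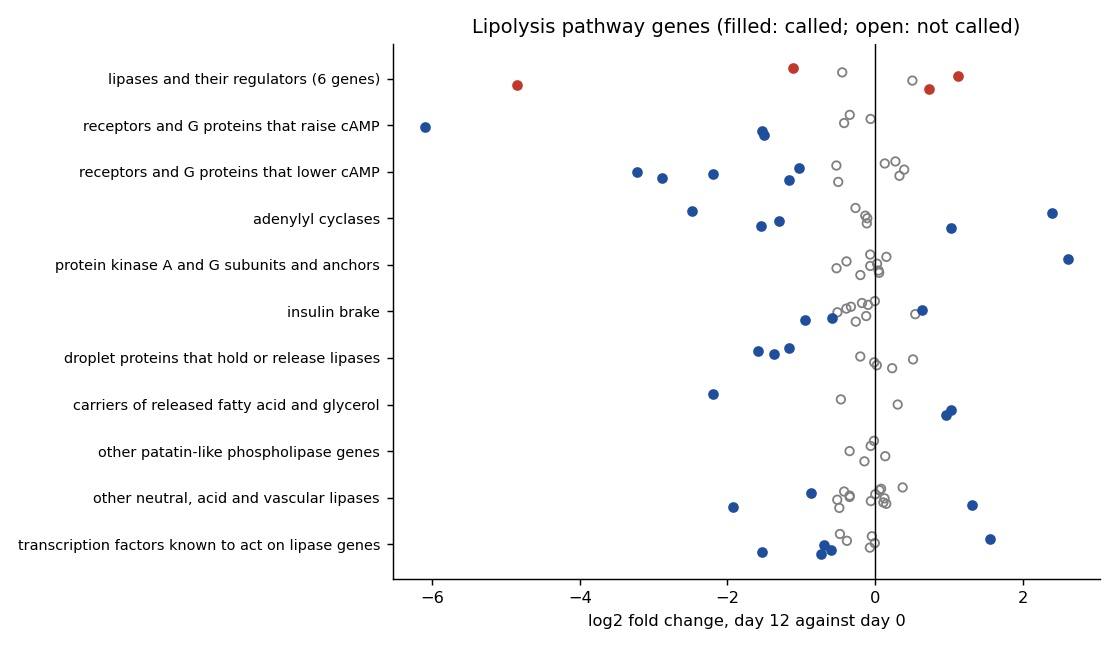
Log2 fold change at day 12 against day 0 of the 6 lipolysis genes (top row) and of each tested gene of 10 pathway lists (rows below); filled points were called and open points were not. The filled points of both receptor lists lie to the left of 0, with Adrb3 at -6.10, and no other patatin-like gene is filled.

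The genes whose pattern was most like that of each member were found by Pearson's r of log2 CPM over all 15 libraries, among 8920 other genes averaging 10 CPM or more. Since the libraries fall into 3 groups, r mostly follows the group means and is a description. Pnpla2 was closest to Akt1 (r = 0.9892), Cenpb (0.9884) and Rcc2 (0.9875), and Mgll to Dhx9 (0.9954), Slc25a5 (0.9947) and Agpat2 (0.9944). Lipe had the least close neighbours, Rgl2 (0.9797), Cyp2f2 (0.9795) and B3galtl (0.9685). Abhd5 was closest to Itm2b (0.9895), H2-D1 (0.9891) and Nudt4 (0.989), and G0s2 to P4ha2 (0.9972), Idua (0.9968) and Mib2 (0.9961). Pnpla3 matched Cpox (0.9973), Cyp2d22 (0.9957) and Tpp1 (0.9957) in shape and not in size, since those changed by -1.38, -1.48 and -1.59 on the log2 scale at day 12, against -4.85 for Pnpla3.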

How the data were processed

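RNA of 15 libraries in 3 groups was sequenced, and groups and replicate numbers were taken from the labels. The authors aligned reads to mm10 with TopHat2 2.0.13 and Bowtie2 2.2.1, and the deposited values used were raw counts of reads per gene from HTSeq. Regularised log values and DESeq2 tables of fold changes and p-values were also deposited and were not used.

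Counts were tested with edgeR 4.0.16 in R 4.3.3 (quasi-likelihood test, TMM scaling, filterByExpr at a minimum count of 10, all 15 libraries in one fit without covariate), with Benjamini-Hochberg adjustment over 14293 genes. Genes were called at an adjusted p below 0.05 with a change of more than 1.5-fold. SE was the size of the log2 fold change over the square root of F. Ratios used counts plus 1 and a two-sided exact permutation test, adjusted over 15 tests. The fit was tested on simulated data, and the outcome is not reported here. The members and lists were chosen with earlier results of these data known. Named from each list were the 3 genes at most with the largest called change at day 12, plus Plin1, Adrb3, Pde3b, Fabp4, Foxo1, Srebf1 and Mlxipl. For each member, the 3 genes with the most alike pattern were named too. Akt2, Nr1h3 and Pparg were named after their values were seen. A withheld single-gene result is not reported here, though counts over the lists include it. Alternatives were RLE, total count or reference gene scaling, other filters and fold limits, DESeq2 1.42.0, only the groups compared, library series, a replicate block and leaving out each library.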

Additional observations from a re-analysis of the deposited data

Results flagged for a closer look

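Among 33 groups of 5 values tested, 3 held a library whose gap to its nearest neighbour, over the range of the group, exceeded Dixon's critical value of 0.71, and chance flags about 1 in 20 groups. In the day 12 group Lipe was 266 CPM in 1 library against 239 to 244 in the others (ratio of gap to range 0.823). The log2 ratio of Pnpla2 to G0s2 at day 1 was 1.05 in 1 library against 0.924 to 0.938 in the others (0.895). The log2 ratio of Pnpla3 to Pnpla2 at day 0 was -3.62 in 1 library against -3.84 to -3.78 in the others (0.722). No call or direction of a member changed when any of these libraries was left out.

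The effect of 12 days on Pnpla3 differed from that of 1 day by -2.35 on the log2 scale, past both thresholds of edgeR's test. The other 5 members also differed between the 2 times by adjusted p, below the fold limit.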

How the results depend on the processing

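Every called member kept its direction in all alternatives that could be fitted, and leaving out each library in turn left the number of members called at 3, 4 and 1 and the number of ratios passing at 14. Members called at day 1 against day 0 numbered 1 with a fold limit of 2, in place of 3, and 2 with reference genes, where Mgll was lost (0.549). A fold limit of 2 also left 3 of the 4 called at day 12 against day 0, without Pnpla2 (0.735). Those at day 12 against day 1 numbered 3 with total counts, 3 with reference genes, 2 in the larger series of library numbers and 6 without a fold limit, in place of 1, and 0 with a mean of at least 10 CPM, a filter that removes Pnpla3. Abhd5 at day 1 turned to -0.0403 with reference genes. Srebf1 at day 12 turned from -0.0025 to 0.19 with total counts, 0.0535 with reference genes and 0.00168 without a filter, and lay between -0.0279 and 0.0174 with each library left out, above 0 for 4 (0.0133 and 0.00952 without day 0 replicate 3 or 4, 0.0135 and 0.0174 without day 12 replicate 3 or 5). Irs2 lost its call without each of 5 libraries (day 0 replicates 3 and 5, day 12 replicates 2, 3 and 5), at -0.566 to -0.585.

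Over all genes, a mean of at least 10 CPM gave 1164, 1688 and 898 calls in the 3 comparisons in place of 3020, 4172 and 2729, a fold limit of 2 gave 1256, 2179 and 1392, and no limit gave 10226, 10950 and 9598. The share of calls that were higher, 36.5%, 44.4% and 55.3%, became 24.2%, 50.4% and 71% with reference genes and 39.2%, 64.1% and 72.7% with total counts. DESeq2 called 3, 4 and 1 members.

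Correlations between the deviations of same-numbered libraries were weak (-0.0255 to 0.0436, none over 0.1), so the numbers were not taken to pair the libraries, although 9 of 15 such pairs correlated best with their own number, where 3 would if the numbers meant nothing. With a replicate block 3, 4 and 1 members were called. For the ratios, 0 of 15 passed with the block (adjusted p = 0.067 in an exact test whose smallest p over 5 pairs is 0.0625), and 0 passed in the larger library series (exact permutation, adjusted p = 0.0612), both designs too small to pass; the log2 ratios kept their direction. Depth limits Pnpla3 at day 12, with 45 to 68 reads per library.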
